A study of Mus musculus with 3 samples.

Results

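The Myb and Myc network genes described here are 7 transcription factor genes chosen by name: Myb, Mybl2, Myc, Mycn, Max, Mxd4 and Mga. All 7 were found among 21883 protein-coding genes placed on the assembled chromosomes of GRCm38.p6 (mm10). H3K27ac, the acetylated form of lysine 27 on histone H3 that marks active promoters and enhancers, was mapped by chromatin immunoprecipitation and sequencing. The cells were T cell precursors sorted from the thymus of C57BL/6J mice aged 5 to 7 weeks, by the phenotype CD4-CD8- (double negative) and CD25+CD44-/+. They form a single wild-type group, titled H3K27Ac_DN_WT, with 2 replicates, and 1 input sample taken before the H3K27ac antibody was not analysed here. The series design also names lymphocytes lacking the Igk and Tcrb enhancers, which were not analysed here, so no comparison between conditions is made. The labels do not say whether the replicates came from separate animals.

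Myb (c-Myb) is the founding member of a family of DNA-binding activators that blood progenitors and early thymocytes depend on, and Mybl2 encodes B-Myb, a relative that drives genes of late cell cycle phases. Myc and its relative Mycn bind E-box DNA only as partners of Max, and raise growth and proliferation genes. Max also pairs with repressive partners, among them Mxd4 and the very large protein Mga, which compete with Myc for Max and for the same DNA. In double-negative thymocytes, Myc is a known target of Notch and pre-T cell receptor signals.

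The data are 1 list of peaks per replicate, 12377 peaks in replicate 1 and 9477 in replicate 2. A peak's fold is its enrichment over background, and its q-value is its false discovery rate, both as the authors' peak caller gave them. Most peaks were weak: the median fold was 2.17 in replicate 1 and 2.31 in replicate 2, and 27.1% and 41.0% of peaks passed a q-value of 0.05. The smallest width listed was 278 bp in replicate 1 and 229 bp in replicate 2. The sorted cells' identity was checked on fixed markers. Of 15 thymocyte genes 5 had a peak of both replicates within 1 kb of an annotated end (Tcf7, Dntt, Cd3d, Cd3e and Cd3g), where 16.8% of all protein-coding genes did, and 5 had none in either, among them Rag1, Rag2 and Gata3. The Cd3 genes lie side by side on chromosome 9, and Cd3d and Cd3g share 1 peak of replicate 1, so these 5 are not independent. The 6 B cell, 4 matched later thymocyte and 5 stroma genes had no such peak in either replicate, and of 6 myeloid genes 1 had a peak, in 1 replicate. Lists this short, set against 16.8%, say little about the cells' identity. On chromosomes 9, 14 and 17 the peaks with a −log10 p of at least 5 had median folds of 1.28 to 1.87. Chromosome 6 did not share these low folds, with 4.27 in replicate 1 and 3.57 in replicate 2. The remaining chromosomes had 4.09 and 4.03. Peaks this strong numbered 217 and 183 on chromosome 6 and 445 and 344 on chromosome 9, in replicates 1 and 2. Chromosome 14 held 123 and 108, and chromosome 17 held 121 and 111. All remaining chromosomes together held 627 and 897. No member lies on chromosome 6, 9, 14 or 17. Since cells were measured in bulk, a mark on fewer cells and a weaker mark per cell cannot be told apart.

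Myb, Myc, Max and Mxd4 had a peak of both replicates at a gene end, meaning within 1 kb of either annotated end. These are 4 of the 7 members, and 16.8% of all protein-coding genes had such peaks. At Mga and Mybl2 only replicate 1 had one, and Mycn had none. Within 2.5 kb of an end the count was the same, with 18.9% of all genes. By replicate, gene-end peaks were found at 6 of 7 members in replicate 1 (25.1% of all genes) and 4 of 7 in replicate 2 (22.2% of all genes). A region covered by peaks of both replicates, called shared below, lay within 100 kb of 5 members, namely those 4 and Mga, where 51.9% of all protein-coding genes had one. With 7 genes chosen by name, these counts are descriptions and carry no test.

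**Figure D1:**
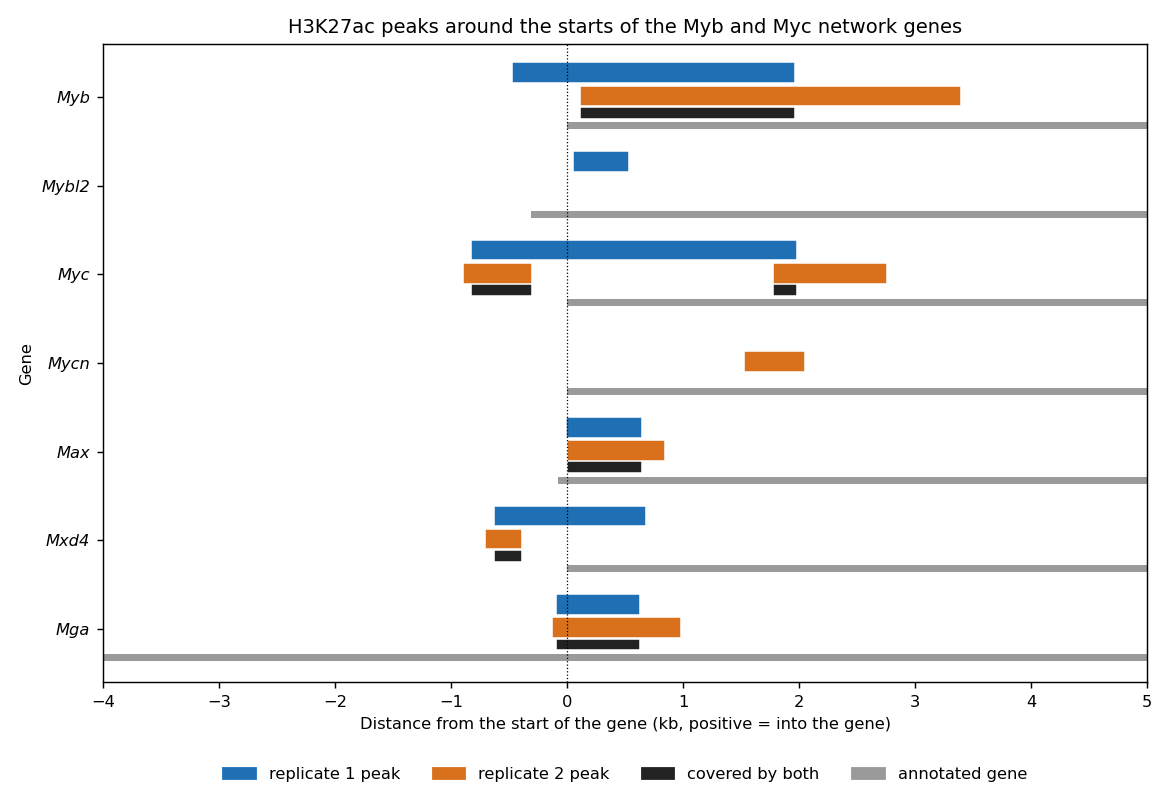
Peaks of replicate 1 (blue) and replicate 2 (orange) around the start of each gene, with the bp covered by both in black and the annotated gene in grey. The x axis is distance from the RefSeq start, or from the lower annotated end for Myc, in kb. Shared coverage lies at Myb, Myc, Max, Mxd4 and Mga, and none at Mybl2 and Mycn.

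Myb (chr10:21124930-21160984, minus strand) carried the widest shared stretch of the 7 genes, over the first part of the gene. The replicate 1 peak spanned 2417 bp, from 467 bp before the RefSeq start to 1.95 kb into the gene, with a fold of 2.08. The replicate 2 peak spanned 3264 bp, from 116 bp to 3.38 kb into the gene, with a fold of 2.23. The stretch covered by both was 1834 bp (chr10:21159035-21160868). These peaks were wide and not tall: they were wider than 97.7% and 99.5% of the peaks in their own lists, while their folds stood at the 40.8th and 43.0th percentile. Their −log10 q was 0.743 and 0.875, so neither reached a q-value of 0.05.

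The sequence before the start of Myb is shown because only 1 replicate covered it. RefSeq gives these 250 bases (GRCm38.p6, chr10:21160985-21161234, minus strand), which hold 40 CpG pairs and 81.2% G and C, against medians of 10 and 55.6% over 21262 promoters of protein-coding genes. Motifs sought here and below would stand in capitals, and this window has none of those marked so.
Myb: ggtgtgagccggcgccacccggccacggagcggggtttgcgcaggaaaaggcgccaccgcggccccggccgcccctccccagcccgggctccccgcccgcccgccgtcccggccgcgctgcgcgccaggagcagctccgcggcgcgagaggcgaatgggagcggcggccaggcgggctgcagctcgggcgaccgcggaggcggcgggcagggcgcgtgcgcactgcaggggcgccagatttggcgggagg
The replicate 1 peak covered all 250 bases and the replicate 2 peak covered 0, so the replicates met on the transcribed side of the start.

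Upstream of Myb, towards Hbs1l, both replicates had a pair of distal peaks. Enhancers of Myb are known to lie in the interval between Myb and Hbs1l, a gene of translation quality control. The nearer shared region lay 74.5 to 75.4 kb before the Myb start (chr10:21235516-21236342, 827 bp). Replicate 1 had a peak of 985 bp there with a fold of 2.07, and replicate 2 had 1965 bp with a fold of 2.36. The farther region lay 90.6 to 91.7 kb before the start (chr10:21251592-21252672, 1081 bp). Replicate 1 had a peak of 1081 bp there with a fold of 2.10, and replicate 2 had 2013 bp with a fold of 1.88. Both regions lay over the long non-coding RNA gene Gm33728, the farther one at its upper annotated end. In each case the replicate 1 peak was the narrower, and the replicate 2 peaks stood at the 96.9th and 97.1st percentile of width in their list.

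Other peaks between Myb and Hbs1l belonged to replicate 1 alone. The widest had 2000 bp, at 26.2 to 28.2 kb before the start, over the long non-coding RNA gene Gm33619, with a fold of 2.14. The others were a peak of 278 bp at 50.6 kb and a peak of 722 bp at 121.9 kb, with folds of 1.56 and 2.86. Replicate 2 had no peak at these 3 places. On the other side, the 44.5 kb between Myb and Ahi1 had no peak in either replicate.

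Within 100 kb of Myb, peaks of both replicates covered 3742 bp, above 98.3% of protein-coding genes (by rank), whose median was 207 bp. Replicate 1 covered 6761 bp in this window and replicate 2 covered 7242 bp. Leaving out bp within 1 kb of the ends of other protein-coding genes did not lower the 3742 bp. Ends of non-coding genes were kept, so this step could not remove the 1081 bp at the end of Gm33728. Both distal regions lay nearer to Hbs1l than to Myb. All of the 3742 bp lay under peaks that did not reach a q-value of 0.05. With that cutoff no shared region was left within 100 kb of Myb. Between Myb and Hbs1l shared coverage was 14134 bp per Mb, against 1272 bp per Mb over chromosome 10 from 3 Mb onward. Myb differed in this from the other members, which had 0 to 701 bp in the same window.

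**Figure D2:**
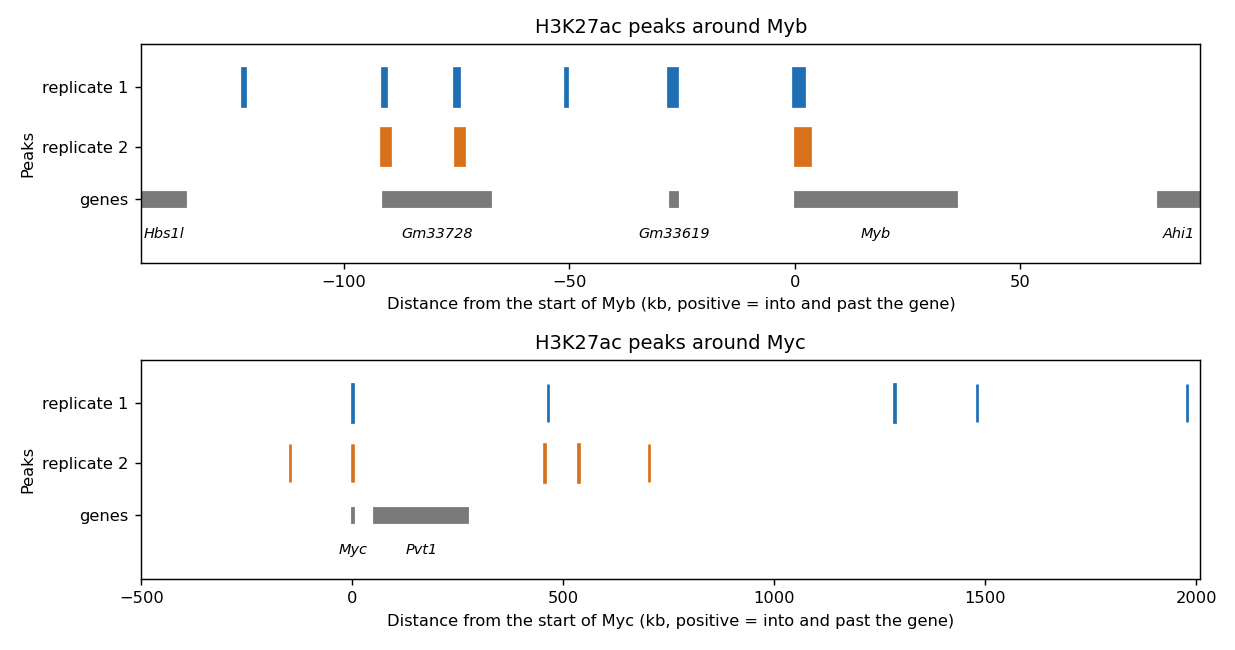
Peaks of each replicate in the interval from Hbs1l to Ahi1 around Myb (top) and from 500 kb before to 2 Mb after Myc (bottom), with selected genes in grey. The x axis is distance from the start of Myb or Myc in kb. Around Myb the replicates coincide at 3 places, and around Myc they coincide at the gene alone.

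Mybl2 (chr2:163054327-163084688, plus strand) had peaks of replicate 1 alone. A peak of 454 bp lay 59 to 512 bp after its RefSeq start, with a fold of 2.19 and a −log10 q of 1.16. A peak of 601 bp lay 16.1 to 16.7 kb before the start, inside Ift52, with a fold of 2.48 and a −log10 q of 1.398, which passes a q-value of 0.05. One more, of 288 bp, lay 102.5 kb after the start. Replicate 2 had no peak within 100 kb, so Mybl2 had 0 shared bp there, and 809 bp within 250 kb. Its other relative, Mybl1, lacked peaks at its ends in either list and also had 0 shared bp within 100 kb.

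Myc (chr15:61985341-61990361, transcribed towards higher coordinates) had peaks of both replicates around its start, but they met only on either side of it. In replicate 1 a single peak of 2782 bp ran from 818 bp before the lower annotated end to 1.96 kb into the gene, with a fold of 2.17. It was wider than 98.7% of its list. In replicate 2 the same stretch held separate peaks, of 566 bp before the gene (fold 1.99) and of 958 bp inside it (fold 2.30). The latter ran from 1.78 to 2.74 kb into the gene. The annotated start itself thus lay under the replicate 1 peak and in a gap of replicate 2. The replicates shared 498 bp upstream (chr15:61984523-61985020) and 185 bp inside the gene (chr15:61987120-61987304). The −log10 q was 1.06 in replicate 1, and 0.940 and 0.932 in replicate 2.

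No other peak of either replicate lay within 100 kb of Myc. The long non-coding RNA gene Pvt1, which lies downstream of Myc and is known to hold enhancers, had no peak in either replicate over its 222 kb. Since distal enhancers of Myc are known far downstream, among them one that answers to Notch, the view was extended to 500 kb before and 2 Mb after the gene. Replicate 1 had 5 peaks and replicate 2 had 6 in this span, and none beyond the gene was shared. This is 1.996 and 2.40 peaks per Mb, below the 4.70 and 3.66 per Mb of chromosome 15 as a whole.

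The distal peaks of the Myc span were scattered. The tallest was in replicate 1, at 463 to 465 kb after the start, with 1232 bp and a fold of 3.26 (chr15:62448736-62449967). Replicate 2 had a peak of 229 bp at 456 kb, near it but not overlapping, with a fold of 2.51. Replicate 1 further had a peak of 1076 bp at 1284 to 1285 kb (chr15:63269280-63270355), with a fold of 2.16 and a −log10 q of 0.771, and replicate 2 had none there. The remaining peaks, at 1481 and 1978 kb in replicate 1 and at 536 and 703 kb after and 147 kb before the gene in replicate 2, were 257 to 471 bp wide. None of these positions was matched to a published enhancer.

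Mycn (chr12:12936093-12941836, minus strand), the relative of Myc known from neural and other embryonic tissues, had a single peak within 100 kb over both replicates, and like Mybl2 it had 0 shared bp there. Replicate 1 had none. Replicate 2 had a peak of 504 bp, 1.53 to 2.04 kb into the gene, with a fold of 2.45 and a −log10 q of 1.12. There was no shared region even within 250 kb, which 69.8% of protein-coding genes had. Mycl, the other paralog, likewise lacked peaks at its ends in both lists.

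The promoter of Mycn is shown as the only one of the 6 with a match to TTTGGCGC or TTTCCCGC, the E2F-type letters sought. In the 250 bases before its RefSeq start (GRCm38.p6, chr12:12941837-12942086, minus strand), capitals mark TTTGGCGC, an E2F-type site, at 183 to 176 and 168 to 161 bases before the start. They also mark TTCAAA, the reverse complement of the CHR letters TTTGAA, at 14 to 9 bases before it.
Mycn: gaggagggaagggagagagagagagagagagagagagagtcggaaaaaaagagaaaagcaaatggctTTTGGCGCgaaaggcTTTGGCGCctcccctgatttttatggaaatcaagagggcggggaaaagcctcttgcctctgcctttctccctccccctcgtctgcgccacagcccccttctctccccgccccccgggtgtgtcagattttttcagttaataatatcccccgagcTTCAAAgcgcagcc
TTTGGCGC occurred on either strand in 0.508% of the 21262 promoters, and TTTGAA in 14.5%. No peak of either replicate touched this window. A match of letters is a description and no binding was measured. Other forms of the E2F site were not sought, so none can be called absent from the other promoters.

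Max (chr12:76937269-76962323, minus strand), the obligate partner of Myc, was the only member to pass a q-value of 0.05 at a gene end in both replicates, as 2.64% of protein-coding genes did. None passed 1e-05 in both, as 0.731% of genes did. The replicate 1 peak had 632 bp, a fold of 2.502 and a −log10 q of 3.15. The replicate 2 peak had 818 bp, a fold of 3.72 and a −log10 q of 3.09. Both were of ordinary width, at the 51.1st and 67.5th percentile, while their folds stood at the 73.8th and 92.0th, so Max was the reverse of Myb. The replicates shared 627 bp (chr12:76961617-76962243), all of it from 5 to 631 bp into the gene. None of the 250 bases before the RefSeq start was covered in either replicate.

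The start of Max is shown because the letters CACGTG, the E-box that Myc and Max bind together, lie across it. The 15 bases before the start and the 15 from it onward read as follows (GRCm38.p6, chr12:76962234-76962263, minus strand), with the E-box in capitals.
Max: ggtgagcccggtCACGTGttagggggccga
The shared stretch begins 5 bp into the gene, just past this site. Over windows of 300 bases that include the first 50 transcribed bases, 7.84% of promoters held CACGTG, and among the members Max and Mxd4 did.

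Farther from Max the replicates had different peaks. Replicate 1 had 808 bp at 46.9 to 47.8 kb before the start with a fold of 1.68. Replicate 2 had 1618 bp at 57.2 to 58.8 kb before it with a fold of 2.63, at an end of the long non-coding RNA gene Gm35041. It also had 233 bp at 94.4 kb before the start, and 478 bp at an end of Fntb, a farnesyltransferase subunit gene. None of these was shared.

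Mxd4 (chr5:34176580-34187710, minus strand), a Max-binding repressor, had a shared stretch before its start and none inside the gene. The replicate 1 peak had 1280 bp, from 620 bp before the start to 659 bp into the gene, with a fold of 2.77 and a −log10 q of 1.62. The replicate 2 peak had 294 bp, from 703 to 410 bp before the start, with a fold of 2.12 and a −log10 q of 0.736. They met over 211 bp (chr5:34188120-34188330). Replicate 1 thus passed a q-value of 0.05 here and replicate 2 did not.

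The promoter of Mxd4 is shown for its E-box. In the 250 bases before the RefSeq start (GRCm38.p6, chr5:34187711-34187960, minus strand), capitals mark CACGTG at 219 to 214 bases before the start, which 6.63% of promoters held in this window.
Mxd4: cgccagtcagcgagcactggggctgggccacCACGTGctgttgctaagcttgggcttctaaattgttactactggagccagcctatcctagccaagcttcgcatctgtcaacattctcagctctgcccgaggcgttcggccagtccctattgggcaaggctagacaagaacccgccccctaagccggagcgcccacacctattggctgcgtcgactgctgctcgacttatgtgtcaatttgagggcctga
Replicate 1 covered all 250 bases and replicate 2 covered 0, its peak lying just upstream.

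A further shared region near Mxd4 belonged to its neighbours. It lay over adjacent ends of Haus3 and Poln, genes of a spindle complex and of a DNA polymerase (chr5:34169089-34169465, 377 bp), 7.1 kb beyond the 3' end of Mxd4. Its fold was 1.28 in replicate 1 and 2.67 in replicate 2. Without it, 211 of the 588 shared bp within 100 kb of Mxd4 were left. Replicate 1 alone had 3 peaks in the neighbouring gene Zfyve28, the tallest with 558 bp and a fold of 3.12.

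Mga (chr2:119872503-119970129, plus strand), which joins Max in a Polycomb-type repressor complex, had its shared peak at a start inside the annotated gene. The lower annotated end had a peak of replicate 1 alone, of 1006 bp with a fold of 2.01. The start in the RefSeq promoter table lies 24.7 kb further in. There replicate 1 had 701 bp, a fold of 2.57 and a −log10 q of 1.97, and replicate 2 had 1093 bp, a fold of 2.09 and a −log10 q of 0.777. The replicate 1 peak lay wholly within that of replicate 2 (chr2:119897137-119897837).

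The promoter of Mga is shown as the only one of the 6 with bases under peaks of both replicates, 91 bases next to the start, against 10.2% of all promoters touched in both. The window (GRCm38.p6, chr2:119896978-119897227, plus strand) has no capitals, since it held none of the marked motifs.
Mga: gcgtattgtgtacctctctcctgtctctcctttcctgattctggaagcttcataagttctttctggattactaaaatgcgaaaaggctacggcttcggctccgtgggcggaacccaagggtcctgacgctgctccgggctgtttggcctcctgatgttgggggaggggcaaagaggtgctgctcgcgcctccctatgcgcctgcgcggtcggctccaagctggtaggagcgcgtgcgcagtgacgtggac
Counted by RefSeq starts in place of gene ends, 4 of the 6 members in that table (Myb, Max, Mxd4 and Mga) had a peak of both replicates within 1 kb, against 18.2% of 17491 genes. The count for gene ends therefore leaves out Mga because of where the gene is annotated to begin.

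Across the members, 8 motifs were sought on both strands of the 250 bases before the start. TTTCCCGC (E2F), GTGGGAA (RBPJ, the DNA-binding partner of Notch), GGAAGT (Ets) and TGTGGT (Runx) had no match in any of the 6 promoters, and occurred in 1.19%, 5.26%, 20.4% and 12.4% of all. AACNG, the core of the Myb site, matched in 5 of 6 (not in Myb itself), but 73.1% of all promoters held it. AACNG was not put in capitals, and its matches do not overlap the capitals printed.

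**Figure D3:**
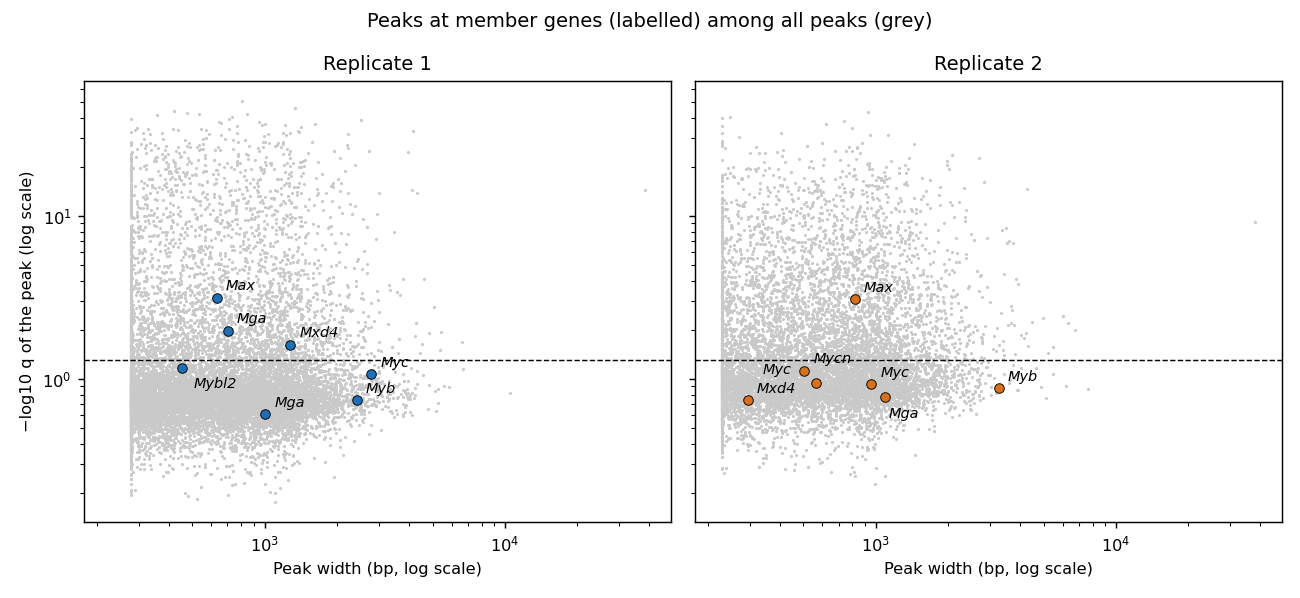
Width against −log10 q of each peak, both on log scales, in replicate 1 (left) and replicate 2 (right). All peaks are grey, peaks at the ends or in the bodies of the 7 genes are coloured and named, and the dashed line is a q-value of 0.05. Max lies above the line in both, and Myb lies below it at the right, among the widest peaks.

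As a set, the peaks of the members were ordinary in height. The 18 peaks of replicate 1 within 100 kb of a member had folds from 1.28 to 3.12 with a median of 2.16, and the 14 of replicate 2 had folds from 1.88 to 3.72 with a median of 2.26. The medians of the whole lists were 2.17 and 2.31. Of the 18 peaks 8 overlapped a peak of the other replicate (44.4%), and of the 14 peaks 9 did (64.3%). Over the whole lists these shares were 34.1% and 44.8%. At gene ends 4 of 6 and 4 of 4 had a partner, and away from the genes 3 of 11 and 3 of 7. Of all protein-coding genes, 5492 had a gene-end peak in replicate 1 and 4863 in replicate 2, and 3673 had both. For peaks away from genes no such share over all genes was computed. The counts therefore show no trait of the members.

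**Figure D4:**
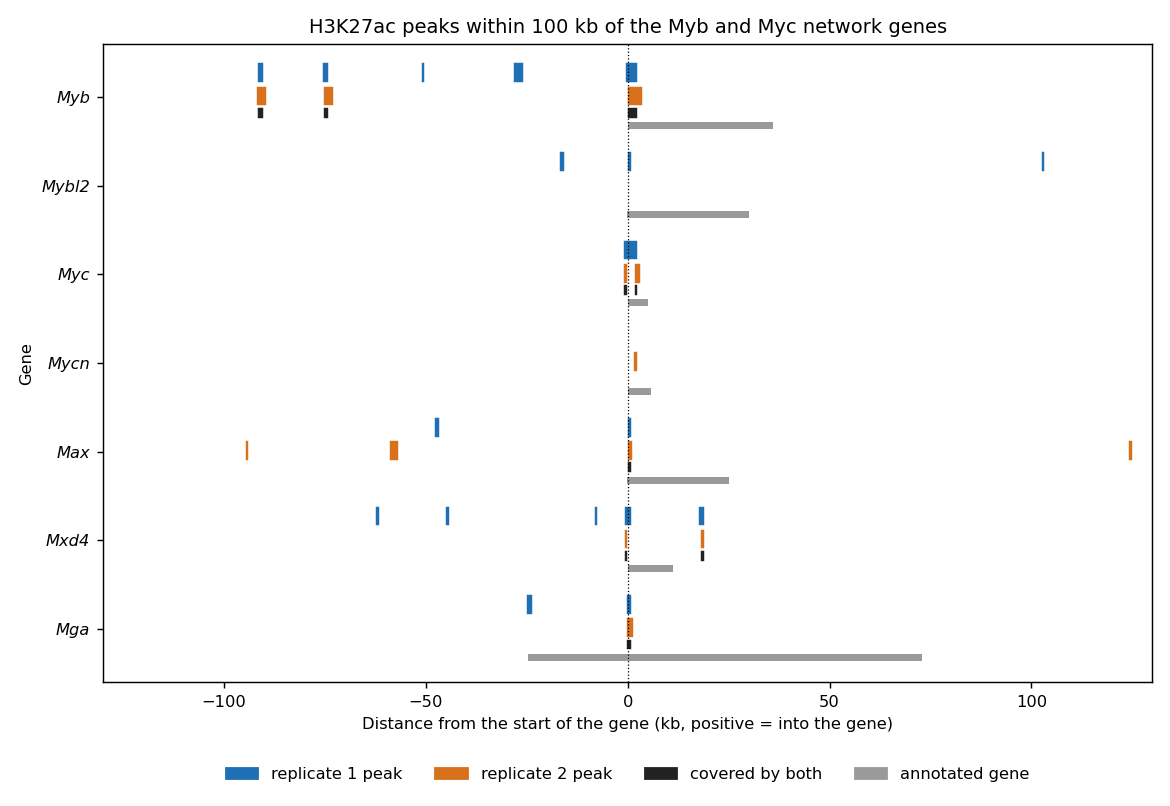
Peaks of each replicate within 100 kb of each gene, with bp covered by both in black and the gene in grey. The x axis is distance from the start of the gene in kb. Away from the genes, peaks of both replicates coincide at 2 places before Myb and at 1 place past Mxd4.

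Genes that work with Myb and Myc were given by 7 fixed lists with 66 genes. In all, 28 of the 66 had a gene-end peak of both replicates, where 16.8% of all protein-coding genes had one. A further 10 had one in replicate 1 alone, 7 in replicate 2 alone, and 21 had none. At a q-value of 0.05 in both, 4 of the 66 (6.06%) passed, against 2.64% of all protein-coding genes: Kat5, Sin3a, Cbx3 and Birc5. Sin3a lies on chromosome 9, where median folds were low, and Cbx3 on chromosome 6, where they were not (above). Both chromosomes held many of the peaks with small p (above). Without chromosomes 6, 9, 14 and 17, 23 of 57 list genes had peaks of both, where 16.9% of all protein-coding genes did. Of the 57, 2 passed a q-value of 0.05. At that cutoff the share of all protein-coding genes off these chromosomes was not computed, so 2 of 57 cannot be read as a difference.

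By the share of genes with peaks of both, the Mga complex (62.5%) and the Myb and MuvB list (60%) were highest, on few genes and untested. Of the 8 genes of the Mga complex 5 had a peak of both replicates: Rnf2 and Ring1, ubiquitin ligases of Polycomb, L3mbtl2, Cbx3 and Tfdp1. E2f6 and Rybp had one in 1 replicate and Pcgf6 had none. Cbx3, a heterochromatin protein gene, had 2516 shared bp within 25 kb, with folds of 3.64 and 3.02. Of the 10 genes of the Myb and MuvB list, 6 had a peak of both replicates. These were Lin9, Lin52 and Rbbp4 of MuvB, the complex to which B-Myb binds, the pocket proteins Rbl1 and Rbl2, and Foxm1. In the same list the MuvB gene Lin37 and E2f4 had one in 1 replicate, and 2 genes had none. The median shared bp within 25 kb was 348 in the first list and 542.5 in the second, against 0 over all protein-coding genes. By this measure the Myc turnover list below, with 692.5, was higher than both.

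Among relatives and partners of Myc the picture was mixed. Of 8 further genes of the Myc and Max family 3 had peaks of both replicates. These were Mnt, Mxd1, and Mlxip, which encodes the glucose sensor MondoA. Mlx and Mxd3 had a peak in replicate 1 alone. Mycl, Mxi1 and Mlxipl had none. Of 10 cofactors 5 had peaks of both: Kat5, Ep400, Trrap, Wdr5 and the corepressor Sin3a. At only 4 of these 5 did the peaks of the replicates overlap at a gene end. Kat2a, Ruvbl1 and Ruvbl2 had none. Sin3a had 3286 shared bp within 25 kb, the most of the 28 genes with peaks of both, with folds of 1.49 and 1.24 and a −log10 q of 9.16 and 7.34 on chromosome 9, where low folds with small p were common (above).

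Of 8 genes that control the turnover of Myc, 3 had peaks of both replicates, with widths of 1437 to 1987 bp. Fbxw7, which targets Myc for degradation, had 1385 shared bp within 25 kb. Gsk3b, the kinase that marks Myc for Fbxw7, had 1767 bp, and Usp36, a nucleolar deubiquitinase, had 1571 bp. Skp2, Trim32 and Huwe1 were without a gene-end peak.

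Targets of the Myc and B-Myb proteins differed in count. Of 12 Myc targets 5 had peaks of both replicates: Ncl, Nop56 and Fbl of the nucleolus, Cdk4, and Odc1 of polyamine synthesis. Rrs1, Cad and Ldha had none in either. Of 10 B-Myb targets only Birc5, the survivin gene, did, and its 2 peaks did not overlap. Plk1, Ccna2 and Cdc20 were among 5 with none, and 4 had one in 1 replicate. A count of 1 in 10 is near the 16.8% of all protein-coding genes with peaks of both. With a peak in either replicate the count was 5 of 10 B-Myb targets, where 30.5% of all protein-coding genes had one. The median shared bp within 25 kb was 263 for Myc targets and 0 for B-Myb targets. The lists are short, were not tested against each other, and hold genes of very different length.

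**Figure D5:**
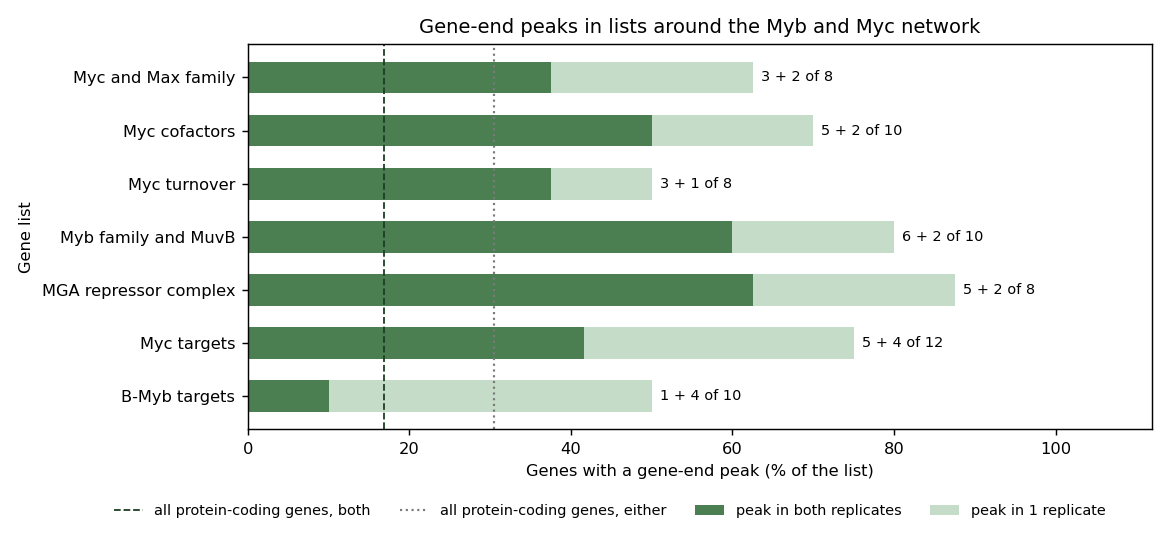
Share of each list with a gene-end peak of both replicates (dark) or of 1 replicate (light), in percent of the list, with the numbers of genes beside each bar. The dashed line is the share of all protein-coding genes with peaks of both (16.8%), and the dotted line with a peak in either (30.5%). The B-Myb targets are the only list below the dashed line, and with a peak in either replicate they lie above the dotted line.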

How the data were processed

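The members and lists were chosen with earlier results of these data known. Per the labels' protocols, cells were fixed with 1% PFA for 10 minutes, chromatin was captured with an H3 antibody, given adapters, and precipitated with an H3K27ac antibody. The submitters' processing notes name Bowtie2, the build mm10 and MACS 1.4.2, whereas the deposited layout is that of MACS2 broad peaks. The peak names in the deposited files show calling on each sample by itself with duplicates removed. Not given in the sources used here are its cutoff and whether the input served as control. The fold (a ratio), the −log10 p and the −log10 q were deposited by the authors and were used only to describe or filter peaks within a list. The deposited score, a truncated form of the −log10 q, was not used. The files hold no read counts, so depth is unknown and no counting interval is given.

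Peaks on assembled chromosomes were intersected (overlap of at least 1 bp), and placed on RefSeq genes of GRCm38.p6, each symbol once. Percentiles are ranks within a list or over all protein-coding genes. All peaks of the 7 members and all shared regions within 100 kb are named, as are list genes with a peak of both replicates and up to 3 per list without. Of the fixed lists, the single results of 1 gene are not reported here. RefSeq promoters matched 6 of 7 members and 79.9% of protein-coding genes. Counting was checked on simulated data. Python 3.11.15, NumPy 2.4.6 and pandas 2.3.3 were used.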

Additional observations from a re-analysis of the deposited data

How the results depend on the processing

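The counts rest mostly on weak peaks. With q-values of at most 0.05, 1 member (Max) had a gene-end peak in both replicates and 1 had a shared region within 100 kb, of 627 bp, while 2.64% of protein-coding genes and 4 genes of the fixed lists had gene-end peaks. With q-values of at most 1e-05 these were 0 members for both counts, 0 bp, and 1 gene of the fixed lists. As all peaks are counted, the sum over members was 6341 bp. It was 14865 bp without replicate 1, 17530 bp without replicate 2, 26054 bp with a peak in either replicate and 11102 bp with a flank of 250 kb. A single list covers more than both together by construction. With a peak in either replicate, 30.5% of protein-coding genes and 45 of the fixed list genes had a gene-end peak. Without a replicate, gene-end counts ran from 4 to 6 members, 22.2% to 25.1% of genes and 35 to 38 list genes. The other alternatives kept the counts within 1.5 times. They were a window of 2.5 kb, RefSeq starts, overlapping peaks, a flank of 25 kb and overlap of 50%. Leaving out the ends of other protein-coding genes was also among them. With RefSeq starts the 4 members were Myb, Max, Mxd4 and Mga. Leaving out chromosomes 6, 9, 14 and 17, chosen after seeing the data, gave 23 list genes and 16.9% of protein-coding genes. No paired analysis was possible because there is a single group. Unknown depth and 2 replicates limit what absent peaks can show.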

Other observations

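The genes beside the members differed from them in several cases. Hbs1l, which faces Myb across 135 kb, had a gene-end peak of both replicates, with 558 shared bp in the gene, whereas Ahi1 on the other side of Myb had none in either. Beside Mybl2, neither Ift52 nor Gtsf1l had a gene-end peak in either replicate. Beyond Mga, a peak of replicate 2 alone (684 bp, fold 2.14) lay where the ends of Mapkbp1 and Jmjd7 meet.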
